A study of Mus musculus with 28 samples.

Results

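Messenger RNA of splenic CD4+ T cells was compared between the congenic lupus strain B6.Sle1b and its reference strain C57BL/6 after 4 h of stimulation through the T cell receptor. The comparison was defined by the sample titles and took 6 of the 28 arrays of the study, 3 of B6.Sle1b and 3 of C57BL/6, across all 17097 genes that could be named. B6.Sle1b carries a chromosome 1 interval linked to lupus susceptibility on the C57BL/6 background, and C57BL/6 carries neither that interval nor a transgene. All donors were 12-week-old females, and all 6 samples had been kept on plate-bound antibody to CD3 at 0.1 µg/ml for 4 h in complete RPMI medium. The same 2 strains were also measured unstimulated (3 arrays each) and after 24 h of anti-CD3 (2 biological arrays of C57BL/6 and 3 of B6.Sle1b). Another strain, Sle1b.BACSlamf6-H1, is B6.Sle1b with an added bacterial artificial chromosome. Its values are shown here only as levels, as Sle1b.BAC. Its arrays also entered the model behind every standard error and p-value, and the choice of each gene's probe set. The labels do not say whether a sample came from 1 animal or from a pool, nor which C57BL/6 substrain served, and the p-values given here rest on how far these samples spread, part of which may be technical.

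The Sle1b interval spans the SLAM receptors, a family of immunoglobulin-like proteins on lymphocytes that bind one another across cell contacts and signal through the adaptor SAP (Sh2d1a) and the kinase Fyn. One of them, Slamf6 (Ly108), is spliced into several forms that differ in their cytoplasmic tail. Antibody to CD3 engages the T cell receptor complex and, within hours, turns on transcription factors of the early response and then cytokine genes. Cells held for 4 h on the antibody were sampled within that period, and not every early gene was raised in them, as described below.

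The 6 arrays were alike in overall signal. Their 75th percentile of intensity lay between 40.7 and 45.4 in C57BL/6 and between 39.2 and 47.3 in B6.Sle1b, and background, read from non-specific control probe sets, lay between log2 2.90 and 3.09. Between 10844 and 11494 genes were above background on an array. Correlations across genes between arrays ran from 0.990 to 0.994 within C57BL/6, from 0.990 to 0.996 within B6.Sle1b and from 0.989 to 0.996 between the strains, so no array stood apart. T cell markers had like levels in both groups. The summed intensity of 9 of 11 total T cell markers (those measured, Cd4 and Cd3e among them) was 9422 to 10140 in C57BL/6 and 9054 to 10391 in B6.Sle1b. These sums do not show how pure the preparations were. The number of arrays limits the precision of every value below.

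In what follows a difference is B6.Sle1b minus C57BL/6 at 4 h on the log2 intensity scale, with its standard error (n = 3 and 3). The standard error takes its spread from all 26 biological arrays of the study, Sle1b.BAC included, and not from these arrays alone. A gene is called where the Benjamini-Hochberg adjusted p of limma was under 0.05 over all 17097 genes. This is a linear model in which the spread of each gene is drawn toward a value common to all genes. Each gene was read by its brightest probe set, the one with the highest mean over the 26 biological arrays of the study. In bulk RNA a lower level in every cell cannot be told apart from fewer cells that express the gene.

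After 4 h of anti-CD3, 7 genes (0.0409% of those tested) differed between B6.Sle1b and C57BL/6. Slamf6, on its brightest probe set, and the pseudogene Pisd-ps3 were higher in B6.Sle1b (0.0117%). The remaining probe sets of Slamf6 were lower, as described below. The 5 lower genes (0.0292%) were Rell1, H2-Oa, Slc25a37, Apoe and Efhd2. On all 7 the arrays of the strains did not overlap, as was also the case for 1650 genes in all (9.65%). Without adjustment 617 genes (3.61%) had a p under 0.05, 205 of them higher in B6.Sle1b (1.20%) and 412 lower (2.41%), and the median difference over all genes was -0.02. With only these 6 arrays in the fit 2 genes were called, Slamf6 and Rell1. With the arrays of both strains at all 3 times, and so without Sle1b.BAC, only Slamf6 was called.

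**Figure D1:**
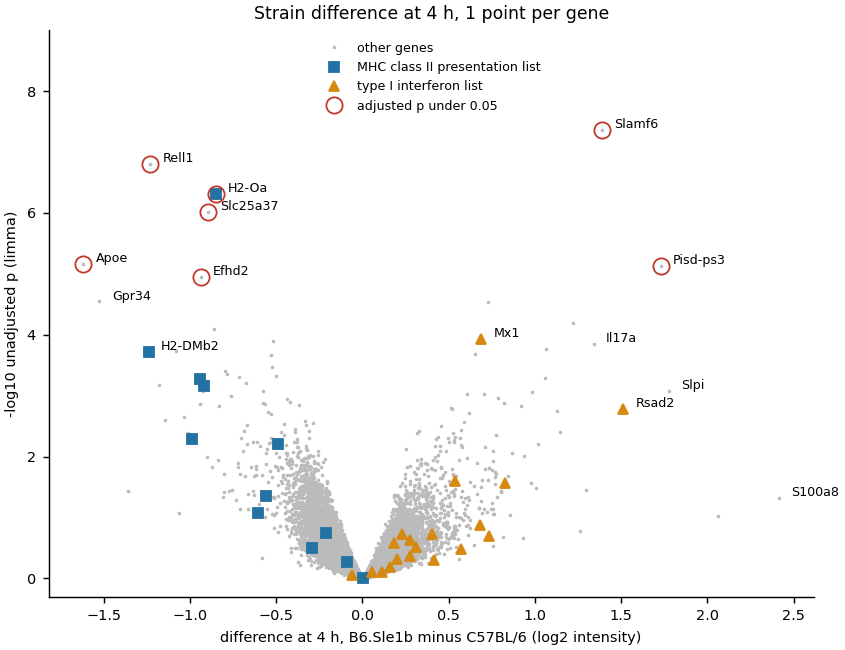
Strain difference at 4 h (horizontal axis, B6.Sle1b minus C57BL/6, log2 intensity) against the -log10 of limma's unadjusted p (vertical axis), with 1 point for each of the 17097 genes. The 7 called genes are ringed, 5 on the left and 2 on the right; blue squares (MHC class II presentation) lie mostly left of 0 and orange triangles (type I interferon response) mostly right of it.

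Slamf6, the SLAM receptor encoded inside the congenic interval on chromosome 1, had log2 intensities of 7.13, 7.04 and 7.14 in C57BL/6 and of 8.65, 8.20 and 8.62 in B6.Sle1b. Every B6.Sle1b array was above every C57BL/6 array by more than the spread within either strain. The difference was 1.39 ± 0.17, or 2.62-fold (adjusted p = 0.000731), for the brightest of 3 probe sets. It was 1.12 in unstimulated cells and 1.62 at 24 h, both called (adjusted p = 0.00298 and 0.000364). Anti-CD3 for 4 h moved this probe set by -0.18 in C57BL/6 and by 0.09 in B6.Sle1b, and neither response was called (adjusted p = 0.759 and 0.940). The direction holds for this probe set only. The second was lower in B6.Sle1b at 4 h by -1.80 ± 0.21, the dimmest was at least 4.75-fold lower, and the mean of all 3 was -1.10. Brightness was ranked over the arrays of all 3 strains, and within C57BL/6 at 4 h the second read higher (8.61 against 7.10).

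Rell1, a membrane protein related to the TNF receptor family member RELT and encoded on chromosome 5, measured 7.55, 7.40 and 7.53 in C57BL/6 against 6.29, 6.23 and 6.26 in B6.Sle1b. The arrays within each strain lay close together and the strains were far apart. The difference was -1.23 ± 0.16, a level 2.34-fold lower in B6.Sle1b (adjusted p = 0.00134). Rell1 was the called gene that responded to anti-CD3 in both strains: at 4 h it fell by 1.24 in C57BL/6 and by 0.70 in B6.Sle1b (adjusted p = 1.54e-05 and 0.00815). Its strain difference was -1.76 unstimulated and -1.12 at 24 h, so all 3 times were called (adjusted p = 5.93e-06 and 0.0192 for the other two). A further probe set of Rell1 was lower in B6.Sle1b as well, by -1.50 ± 0.26 (adjusted p = 0.0340 over all probe sets).

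H2-Oa encodes the alpha chain of H2-O, the partner that restrains the peptide loader H2-DM, and lies in the MHC on chromosome 17. Its intensities were 6.06, 5.97 and 6.02 in C57BL/6 and 5.12, 5.10 and 5.29 in B6.Sle1b. The groups were separated by a gap several times the range within either. The difference was -0.85 ± 0.12, a level 1.80-fold lower (adjusted p = 0.00279). In unstimulated cells the arrays of the 2 strains overlapped and the difference of -0.32 was not called (adjusted p = 0.916), and at 24 h it was -0.85 and called (adjusted p = 0.0192). During the 4 h H2-Oa fell by 0.63 in B6.Sle1b (adjusted p = 0.00162), against -0.10 in C57BL/6, which was not called (adjusted p = 0.858). The change of the strain difference from unstimulated to 4 h was itself -0.53 ± 0.17 and was not called. The call at 4 h was lost when the arrays were quantile normalized again, with a difference of -0.64 (adjusted p = 0.299).

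Slc25a37, or mitoferrin, carries iron into mitochondria. It measured 7.32, 7.35 and 7.29 in C57BL/6 and 6.59, 6.62 and 6.06 in B6.Sle1b. Array 3 of B6.Sle1b was the lowest, and the other two were also below all of C57BL/6. The difference of -0.90 ± 0.13 was 1.86-fold (adjusted p = 0.00408), and it was -0.65 unstimulated, which narrowly missed the threshold (adjusted p = 0.0550), and -0.84 at 24 h (adjusted p = 0.0346). Its other two probe sets, both dimmer, differed by 0.23 ± 0.32 and -0.47 ± 0.29 and were not called, and neither was the mean of all 3 (-0.38). The next gene on chromosome 14, Entpd4, an endomembrane nucleotidase, measured 5.91, 6.03 and 5.96 against 5.32, 5.34 and 5.40. These arrays did not overlap either, and the difference of -0.62 ± 0.24 was not called.

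Apoe, the apolipoprotein that carries lipids between cells, measured 7.04, 6.92 and 5.97 in C57BL/6 and 5.04, 5.12 and 4.90 in B6.Sle1b. The third C57BL/6 array was well under the other two yet above all of B6.Sle1b. The difference of -1.62 ± 0.27 was 3.07-fold (adjusted p = 0.0209). It was -0.76 unstimulated and -0.67 at 24 h, neither called (adjusted p = 0.881 and 0.994), with arrays apart in the same direction at both times. The call did not hold without array 1 or 2 of C57BL/6, nor without any single array of B6.Sle1b, while the difference stayed between -1.95 and -1.42 and the highest adjusted p was 0.237. Apoe is made in abundance by macrophages, and 14 of 16 monocyte and macrophage markers were measured. Their summed intensity was 161 to 182 in C57BL/6 and 172 to 182 in B6.Sle1b, and none of them was called. Background was not subtracted from the sum, and 5 of the 14, C1qa and C1qb among them, were at background on all 6 arrays. The part of macrophage RNA in the Apoe values was not tested. The neighbouring apolipoprotein gene Apoc1 was close to background, at 2.91, 3.20 and 3.17 against 2.84, 2.87 and 2.87.

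Efhd2 (swiprosin-1), a calcium-binding protein of lymphocytes encoded on chromosome 4, measured 8.86, 8.57 and 8.36 in C57BL/6 and 7.90, 7.76 and 7.31 in B6.Sle1b. The groups did not overlap, and array 3 was the lowest in both. The difference was -0.94 ± 0.16, or 1.92-fold (adjusted p = 0.0273). It was larger in unstimulated cells, at -1.21 (adjusted p = 0.00121), and the same at 24 h, at -0.94 (adjusted p = 0.0867). A second, dimmer probe set of Efhd2 differed by 0.28 ± 0.19 in the other direction and was not called, and with the mean of both the gene was not called (-0.33). The call was also lost without array 1 or 2 of C57BL/6 and without array 2 or 3 of B6.Sle1b (highest adjusted p = 0.267).

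Pisd-ps3, a pseudogene of the phosphatidylserine decarboxylase gene Pisd, measured 6.99, 5.95 and 5.90 in C57BL/6 and 8.30, 7.81 and 7.92 in B6.Sle1b. Array 1 of C57BL/6 was the highest of its group but under every B6.Sle1b array. The difference was 1.73 ± 0.29, or 3.31-fold (adjusted p = 0.0209), with 1.56 unstimulated and 1.89 at 24 h, both called (adjusted p = 0.0317 and 0.0341). Its other two probe sets were higher too, by 0.91 ± 0.16 (adjusted p = 0.0425) and 1.27 ± 0.23 (adjusted p = 0.0569 over all probe sets). Probes of a pseudogene may also read its near-identical copies, so the transcript behind these values is uncertain. The call was lost without array 2 or 3 of C57BL/6 and without any single array of B6.Sle1b, with differences between 1.54 and 2.08 (highest adjusted p = 0.237).

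Most of these differences were not particular to the stimulated cells. Of the 7 genes, 4 were also called in unstimulated cells, where 21 genes were called in all (0.123%), and 5 were called at 24 h, where 7 were called in all (0.0409%). Slamf6, Rell1 and Pisd-ps3 were called at all 3 times. The arrays of the strains overlapped for H2-Oa in unstimulated cells. How often genes at large were apart in the same direction at every time was not counted. The 3 times share no array, but they share 1 estimate of the spread. Levels in Sle1b.BAC at 4 h were near those of B6.Sle1b, with 8.60, 8.06 and 8.69 for Slamf6, 6.32, 6.26 and 6.24 for Rell1 and 5.18, 5.29 and 5.37 for H2-Oa.

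**Figure D2:**
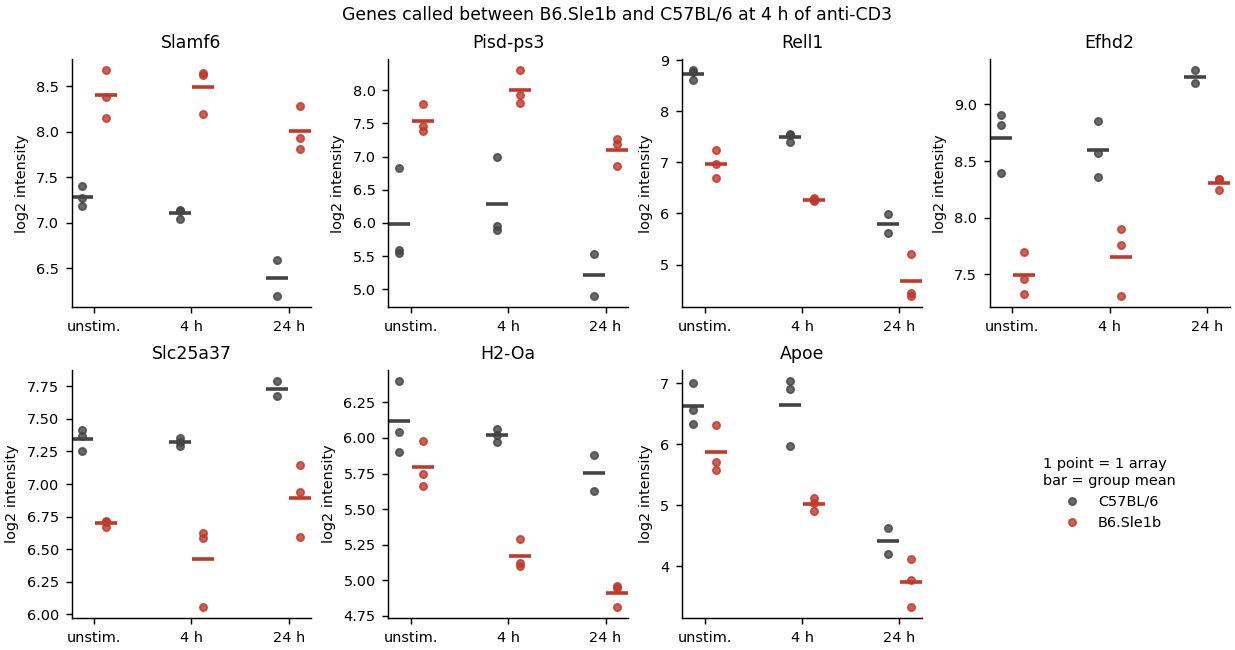
Log2 intensity of the 7 called genes in C57BL/6 (grey) and B6.Sle1b (red), unstimulated and after 4 h and 24 h of anti-CD3, with 1 point for each array and a bar for the group mean (n = 3, or 2 for C57BL/6 at 24 h). At 4 h the strains are apart on every gene, as for Rell1 at 7.40 to 7.55 against 6.23 to 6.29; for H2-Oa they overlap in unstimulated cells.

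Among the SLAM receptors at 4 h the probe sets of Slamf6 went opposite ways. Its second probe set measured 8.46, 8.39 and 8.97 in C57BL/6 and 6.90, 6.52 and 6.99 in B6.Sle1b, a difference of -1.80 ± 0.21 (adjusted p = 0.000441 over all probe sets). Its dimmest probe set measured 5.25, 5.09 and 5.26 in C57BL/6 and 2.38, 2.30 and 2.30 in B6.Sle1b, where all 3 arrays were at background, so it was at least 4.75-fold lower (adjusted p = 8.52e-12). Both therefore opposed the brightest one, and the mean of all 3 probe sets gave a difference of -1.10 for the gene. Over the 4 h the second probe set rose by 0.76 in C57BL/6 (adjusted p = 0.0352) and the dimmest by 1.47 (adjusted p = 6.39e-08), where 4.67% of all probe sets responded. In B6.Sle1b they moved by 0.25 and -0.12, neither called (adjusted p = 0.804 and 0.890, 3.49% of all probe sets called). Which exons or splice forms each probe set reads, and whether the strains differ in sequence under the probes, was not analysed here. Sle1b.BAC, at 7.45, 6.85 and 7.49 and at 2.45, 2.83 and 2.72 on these 2 probe sets, was also below C57BL/6 on every array.

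Cd84, a self-binding SLAM receptor and the gene next to Slamf6, measured 7.78, 7.96 and 7.88 in C57BL/6 and 8.32, 8.52 and 8.50 in B6.Sle1b. The groups did not overlap, and the difference of 0.57 ± 0.19 was not called, with an interval of 0.18 to 0.97. A second probe set gave almost the same value, 0.58 ± 0.19, and on the mean of both Cd84 was called (adjusted p = 0.0494). Slamf1 (SLAM, CD150) differed by 0.32 ± 0.19, -0.26 ± 0.20 and 0.51 ± 0.29 on its 3 probe sets. Ly9 (CD229) differed by -0.37 ± 0.23, with the third B6.Sle1b array, at 4.58, below the rest. The adaptor gene Sh2d1a differed by -0.16 ± 0.16 and the kinase gene Fyn by 0.23 ± 0.24. Slamf8, Cd244a and Slamf9 were near background, with differences of -0.34, 0.23 and 0.22. Of 12 genes in the list of SLAM receptors and adaptors, 10 were measured, 1 was called and 6 were above 0.

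**Figure D3:**
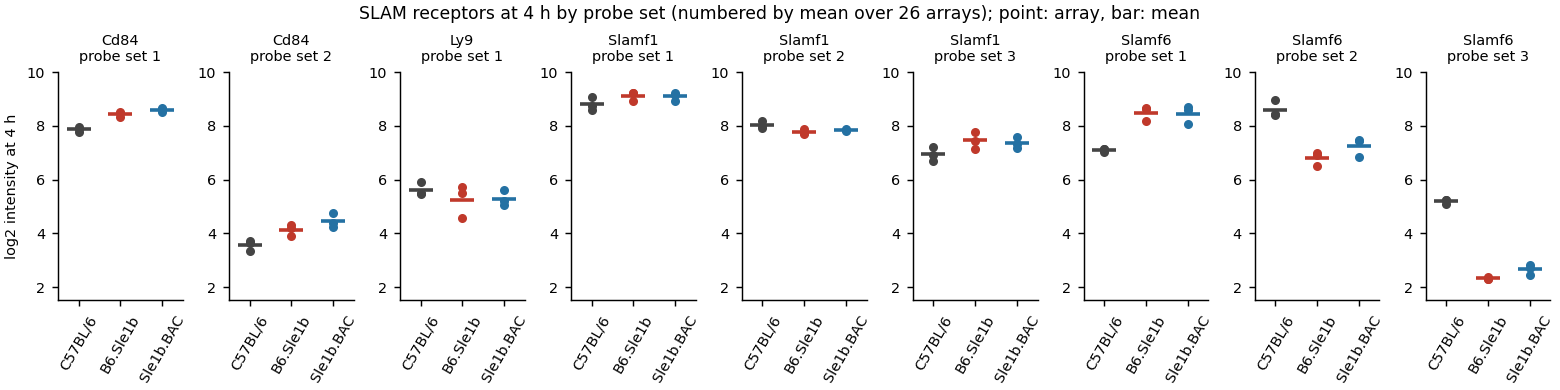
Log2 intensity at 4 h of anti-CD3 for each probe set of Cd84, Ly9, Slamf1 and Slamf6 in C57BL/6, B6.Sle1b and Sle1b.BAC, with 1 point for each of 3 arrays and a bar for the mean. Slamf6 probe set 1 is higher in B6.Sle1b than in C57BL/6, whereas probe sets 2 and 3 are lower; levels of different probe sets cannot be set against each other.

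Genes of MHC class II antigen presentation were lower in B6.Sle1b as a group. Class II molecules show peptides to CD4+ T cells and are made mainly by B cells, dendritic cells and macrophages; mouse T cells make little of them. All 12 listed genes were measured. H2-Oa was called, 11 were below 0 and 1 above, and the median difference was -0.58, against -0.02 over all genes. Arrays did not overlap, with B6.Sle1b lower, on 7 of the 12 (6.57% of all genes), and 7 had an unadjusted p under 0.05 with B6.Sle1b lower (2.41% of all genes). H2-Aa, the class II alpha chain of I-A, measured 10.04, 9.87 and 9.58 in C57BL/6 and 8.68, 9.04 and 8.95 in B6.Sle1b. All B6.Sle1b arrays were below all of C57BL/6, and the difference of -0.94 ± 0.23 was not called (adjusted p = 0.344). Another probe set of H2-Aa, which did not stand for the gene because it was dimmer, did pass over all probe sets, at -1.14 ± 0.20 (adjusted p = 0.0425).

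The beta chain gene H2-Ab1 measured 8.22, 7.73 and 6.72 against 6.46, 7.12 and 6.14, with array 3 of C57BL/6 below array 2 of B6.Sle1b. H2-Eb1, the beta chain of I-E, measured 8.82, 8.49 and 7.92 against 7.22, 7.82 and 7.43, and here the groups did not overlap. The differences were -0.99 ± 0.31, and -0.92 ± 0.23 (adjusted p = 0.406), neither called. Among the genes of peptide loading, H2-DMb2 had the largest difference of the list, -1.24 ± 0.28 (adjusted p = 0.194), from 6.28, 5.81 and 5.35 in C57BL/6 to 4.50, 4.92 and 4.32 in B6.Sle1b. H2-DMb1, at -0.49 ± 0.16, was at or near background in both strains. The invariant chain gene Cd74 differed by -0.56 ± 0.26 and H2-Ob by -0.61 ± 0.33, while Ctss, the protease that trims the invariant chain, differed by -0.21 ± 0.15. Ciita, the master regulator of class II transcription, was at background on all 6 arrays. The median over the 12 genes was -0.34 in unstimulated cells and -0.38 at 24 h.

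The promoters of the class II genes share a module of sequence boxes, of which the Y box binds the factor NF-Y. It was searched as CTGATTGG on both strands in the 300 bases from 250 before to 50 after the start of each gene, in RefSeq sequences of build GRCm38.p6. For 8 of the 12 genes 9 promoters were given. Of these 9 promoters 3 held the box, which was found in 4.1% of all 32851 promoters. They are shown because they were the promoters of the list that held the box, and H2-Oa was the class II gene that was called. Capitals mark the box, whose first base lies 46 bases before the start of H2-Oa (chr17:34092129-34092428, plus strand), 51 before that of H2-Aa (chr17:34287774-34288073, minus strand) and 62 before that of H2-Eb1 (chr17:34305617-34305916, plus strand). The match describes the letters only, and a promoter without one may hold a variant.
H2-Oa: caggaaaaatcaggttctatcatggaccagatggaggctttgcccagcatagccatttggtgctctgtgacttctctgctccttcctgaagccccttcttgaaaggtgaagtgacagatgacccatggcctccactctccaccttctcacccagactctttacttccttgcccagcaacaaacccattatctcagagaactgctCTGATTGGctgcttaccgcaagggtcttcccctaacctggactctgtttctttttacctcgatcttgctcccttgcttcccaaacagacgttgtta
H2-Aa: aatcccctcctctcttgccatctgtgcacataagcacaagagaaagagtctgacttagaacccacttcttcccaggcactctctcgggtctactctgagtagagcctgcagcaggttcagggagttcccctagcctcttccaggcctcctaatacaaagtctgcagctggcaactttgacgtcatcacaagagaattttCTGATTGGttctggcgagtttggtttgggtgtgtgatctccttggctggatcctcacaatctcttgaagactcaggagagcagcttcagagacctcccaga
H2-Eb1: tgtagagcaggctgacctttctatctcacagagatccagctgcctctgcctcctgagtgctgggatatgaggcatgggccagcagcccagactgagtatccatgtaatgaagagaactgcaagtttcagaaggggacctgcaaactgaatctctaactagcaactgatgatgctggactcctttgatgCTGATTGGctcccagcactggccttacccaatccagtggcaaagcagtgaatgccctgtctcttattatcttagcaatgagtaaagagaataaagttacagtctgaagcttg

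Markers of B cells, which express class II strongly, lay mostly below 0 as well. Of 15 listed markers 12 were measured, none was called, 10 were below 0 (9666 of 17097 over all genes) and the median difference was -0.35. Cd79b, the beta chain of the B cell receptor signalling pair, measured 8.16, 7.94 and 7.32 in C57BL/6 and 6.41, 6.87 and 6.90 in B6.Sle1b, a difference of -1.08 ± 0.24 (adjusted p = 0.194). Ms4a1 (CD20) measured 7.63, 7.36 and 7.39 against 5.89, 6.38 and 7.09, a difference of -1.01 ± 0.31 (adjusted p = 0.964). On both genes every B6.Sle1b array was below every C57BL/6 array. Cd79a (-0.41 ± 0.15) and the kinase gene Blk (-0.58 ± 0.23) had the same direction, and at an unadjusted p under 0.05 there were 4 markers lower in B6.Sle1b (2.41% of all genes). The immunoglobulin gene Ighm went the other way (0.75 ± 0.38). The summed intensity of the 12 markers was 529 to 790 in C57BL/6 and 338 to 467 in B6.Sle1b, a ratio of 0.616, with Cr2 at background on all 6 arrays. The part of B cell RNA in the class II values was not tested.

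Of 10 NK cell markers all were measured and none was called. There were 7 below 0 and 3 above (Eomes, Prf1 and Ncr1). Their median was -0.38, and -0.55 to -0.18 over the alternatives, and the summed intensity was 752 to 1100 in C57BL/6 against 594 to 675 in B6.Sle1b. Klrd1 (CD94) measured 7.68, 7.65 and 7.79 against 7.16, 6.97 and 6.88, a difference of -0.70 ± 0.22. Its partner Klrc1 (NKG2A) differed by -0.72 ± 0.26 and the activating receptor gene Klrk1 (NKG2D) by -0.61 ± 0.20, with no overlap of arrays on any of the 3, whereas the NK receptor gene Ncr1 differed by 0.01. In the whole list arrays did not overlap, with B6.Sle1b lower, on 5 of the 10 (6.57% of all genes). An unadjusted p under 0.05 in limma with B6.Sle1b lower was found for 4 (2.41% of all genes). Of 13 neutrophil markers 9 were measured and none was called, with a median of 0.65, which ran from 0.19 to 0.85 over the alternatives. Their sums were 85.6 to 184 in C57BL/6 and 240, 578 and 122 in B6.Sle1b, so the groups overlapped. The ratio of the mean sums was 2.63 and, without array 2 of B6.Sle1b, 1.52. S100a8, a calcium-binding protein of neutrophil cytoplasm, ranged from 2.60 to 6.03 in C57BL/6 and from 4.79 to 7.81 in B6.Sle1b, so the groups overlapped. Dendritic cell markers summed to 476 to 514 and 417 to 468, platelet markers to 341 to 413 and 296 to 360, plasma cell markers to 4086 to 6226 and 5545 to 7718, erythroid markers to 3319 to 5796 and 4863 to 5386, and CD8 T cell markers to 1386 to 2436 and 1418 to 1892. No member of these lists was called, and their part in the results was not tested.

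**Figure D4:**
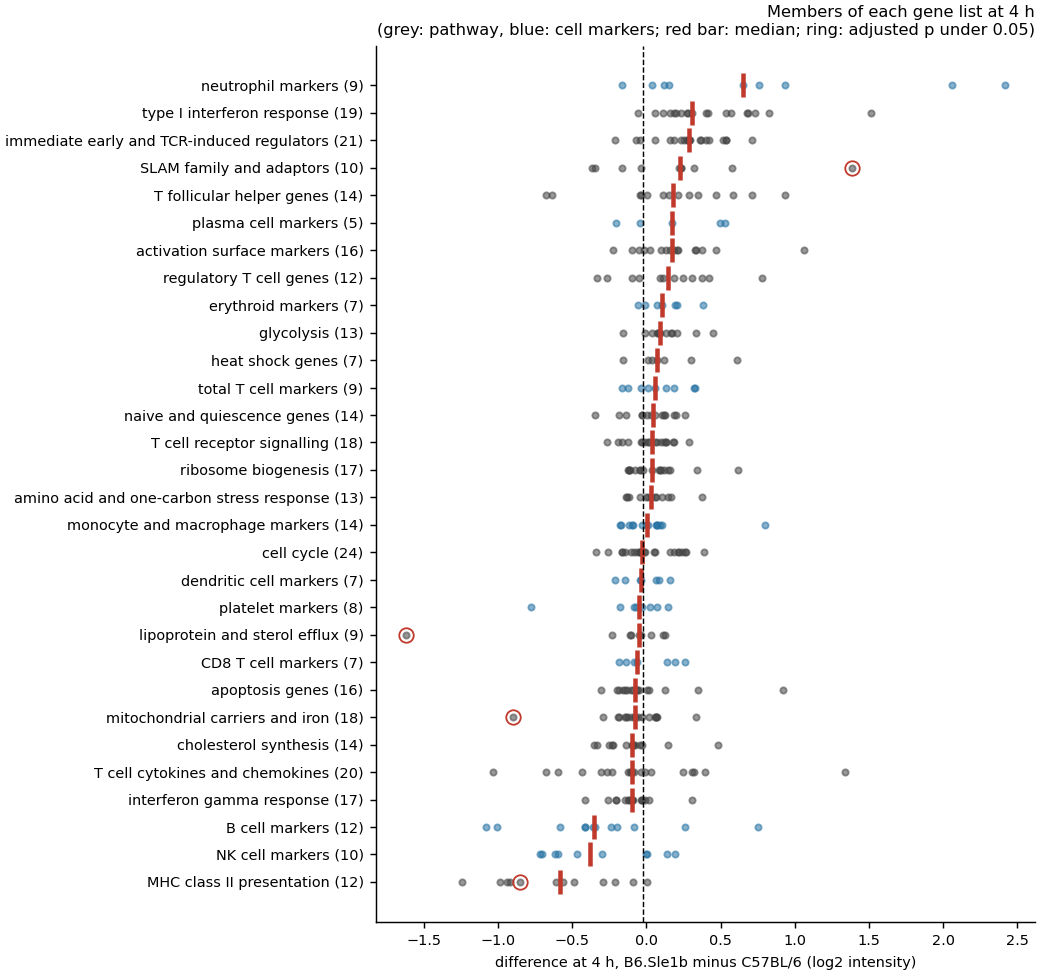
Differences at 4 h (horizontal axis, B6.Sle1b minus C57BL/6, log2 intensity) for the measured members of 30 gene lists, with the number of members in brackets, 1 point for each gene and a red bar for the median; the dashed line is the median of all genes at -0.02. MHC class II presentation has the lowest median (-0.58), and neutrophil markers (0.65) and the type I interferon response (0.31) have the highest.

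Genes of the type I interferon response, which encode antiviral proteins switched on by interferon alpha and beta, tended to lie above 0. Of 24 listed genes 19 were measured and none was called at 4 h. The median difference was 0.31, 18 of 19 were above 0, and 4 had an unadjusted p under 0.05 with B6.Sle1b higher (1.20% of all genes). Rsad2 (viperin) measured 6.92, 6.53 and 7.63 in C57BL/6 and 8.07, 8.38 and 9.16 in B6.Sle1b. The groups did not overlap, with array 3 the highest in both, and the difference was 1.51 ± 0.42 (adjusted p = 0.573). Mx1, the antiviral GTPase, measured 3.08, 2.93 and 3.10 in C57BL/6, near background, and 3.89, 3.34 and 3.94 in B6.Sle1b, a difference of 0.69 ± 0.15 (adjusted p = 0.166). Mx2 differed by 0.54 ± 0.22 and Cmpk2, a mitochondrial nucleotide kinase, by 0.83 ± 0.35.

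The group median was larger before stimulation and had turned by 24 h. It was 0.84 in unstimulated cells, with all 19 genes above 0, and -0.12 at 24 h, with 2 above. In unstimulated cells Rsad2 (2.20) and Mx1 (0.81) were called (adjusted p = 0.0332 and 0.0209). The differences between times were not called for any gene of the list. For Rsad2 the strain difference changed by -0.69 from unstimulated to 4 h and was 1.61 larger at 4 h than at 24 h, neither called. Over the 4 h, 12 of the 19 genes rose in C57BL/6 (4.08% of all genes did) and 9 in B6.Sle1b (2.57%). Sle1b.BAC measured 7.33, 7.14 and 7.35 for Rsad2 and 3.18, 2.82 and 3.25 for Mx1, nearer to C57BL/6 than to B6.Sle1b. The interferon-stimulated response element was searched as GAAA, any 2 bases and again GAAA, on both strands. It was found in 7 of the 17 promoters given for 14 genes of the list and in 3.44% of all promoters. The promoter of Rsad2 (chr12:26456403-26456702, minus strand of GRCm38.p6, from RefSeq) is shown because this gene had the largest difference of the list, with the match, which runs on the opposite strand, in capitals.
Rsad2: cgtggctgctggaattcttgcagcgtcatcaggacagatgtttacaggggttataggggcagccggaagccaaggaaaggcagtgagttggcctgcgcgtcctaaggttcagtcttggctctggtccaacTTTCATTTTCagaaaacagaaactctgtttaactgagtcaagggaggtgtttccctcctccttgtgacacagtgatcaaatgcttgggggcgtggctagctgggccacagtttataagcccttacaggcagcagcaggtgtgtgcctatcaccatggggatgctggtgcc

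The interferon gamma response, represented by 17 of 20 listed genes, had a median difference of -0.10 at 4 h with 2 genes above 0 and none called, against 0.40 with all 17 above 0 in unstimulated cells. Both strains raised these genes. In C57BL/6 14 of the 17 rose (4.08% of all genes did), with a median response of 1.57 on the log2 scale, and in B6.Sle1b 12 rose (2.57%), with a median of 1.05. The guanylate-binding protein gene Gbp2 was 12.46, 12.50 and 12.65 in C57BL/6 and 12.34, 12.36 and 12.56 in B6.Sle1b at 4 h, so the groups overlapped. The immunoproteasome gene Psmb8 was the only one of the 17 whose arrays did not (-0.21 ± 0.10), against 9.65% of all genes.

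Cytokine genes are among the main targets of the T cell receptor. Of 22 listed 20 were measured and none was called between the strains at 4 h, with a median difference of -0.10 and 6 above 0. Il17a, the cytokine of Th17 cells, measured 4.34, 4.86 and 4.24 in C57BL/6 and 5.69, 6.04 and 5.74 in B6.Sle1b. These groups were clearly apart, and the difference of 1.34 ± 0.29 was not called (adjusted p = 0.172). Over the 4 h Il17a rose by 1.89 in B6.Sle1b (adjusted p = 0.000149), and its response of 0.89 in C57BL/6 was not called (adjusted p = 0.0708). The difference between the responses, tested directly, was not called.

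Csf2, which encodes GM-CSF, went the other way, with 7.57, 8.06 and 7.38 in C57BL/6 and 6.75, 6.69 and 6.48 in B6.Sle1b. The lowest C57BL/6 array was above the highest of B6.Sle1b, and the difference was -1.03 ± 0.30 (adjusted p = 0.718). Csf2 rose by 4.30 in C57BL/6 and by 3.20 in B6.Sle1b (adjusted p = 2.15e-09 and 2.58e-07). Ifng, encoding interferon gamma, measured 8.82, 8.56 and 8.48 against 8.19, 8.15 and 7.73, again without overlap and not called (-0.60 ± 0.30). It rose by 2.14 in C57BL/6 (adjusted p = 4.16e-05), whereas its response of 0.89 in B6.Sle1b was not called (adjusted p = 0.103). Il4, the cytokine of Th2 cells, measured 10.97, 11.35 and 10.55 against 10.64, 9.88 and 10.31, with overlap, a difference of -0.68 ± 0.27 that was not called, and responses of 3.92 and 3.21.

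The chemokine gene Ccl1, a ligand of the receptor CCR8, measured 5.74, 5.96 and 5.23 in C57BL/6 and 4.85, 4.47 and 4.06 in B6.Sle1b. The groups did not overlap, and the difference of -1.18 ± 0.30 was not called (adjusted p = 0.406). Ccl1 rose by 1.65 in C57BL/6 (adjusted p = 0.000761) and its response in B6.Sle1b was 0.61 (adjusted p = 0.362). At 24 h both strains were near 8, with 8.85 and 7.96 in C57BL/6 and 8.67, 8.12 and 8.45 in B6.Sle1b, and the strain difference was 0.00. The lymphotoxin genes Lta (-0.43 ± 0.21) and Ltb (-0.30 ± 0.16) were not called. Over the whole list 11 genes had a called response in C57BL/6. B6.Sle1b minus C57BL/6 in the response was below 0 for 9 of them and above 0 for 2, from -1.25 for Ifng to 0.30 for Xcl1, with a median of -0.58, and none was called. The same median over all genes that rose in C57BL/6 was -0.21. Choosing genes by a called response in C57BL/6 favours values below 0, so these counts cannot show a weaker response in B6.Sle1b.

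**Figure D5:**
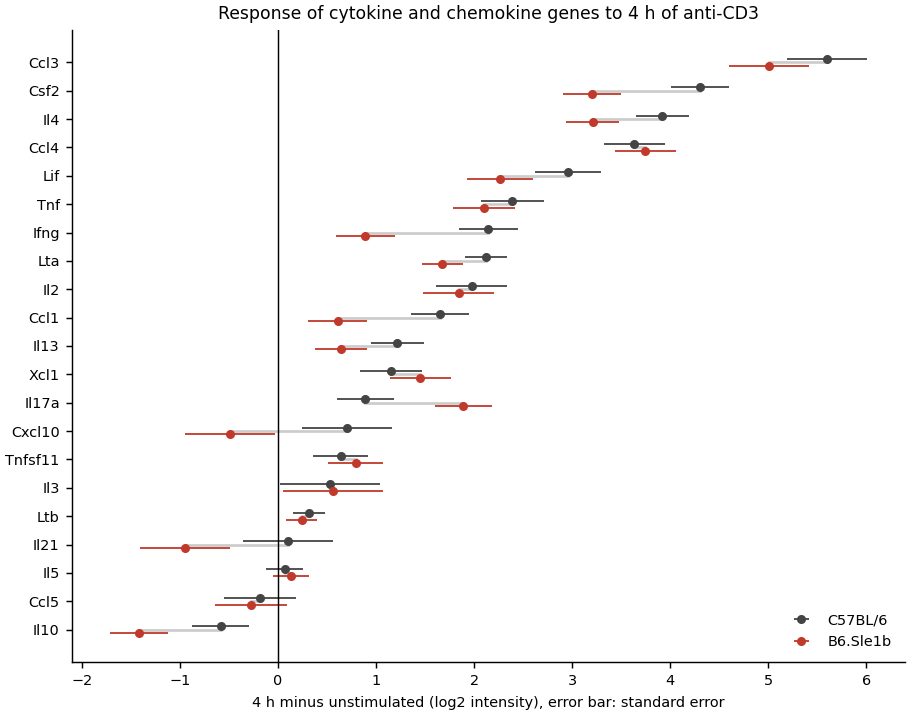
Response to 4 h of anti-CD3 (4 h minus unstimulated, log2 intensity, with standard error) of 20 cytokine and chemokine genes of the list and Ccl1 in C57BL/6 (grey) and B6.Sle1b (red). Csf2 responds by 4.30 and 3.20, Ifng by 2.14 and 0.89 and Il17a by 0.89 and 1.89; no difference between the strains' responses was called.

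Il2, Cd69 and Il2ra, taken outside the rule for named genes because they are textbook readouts of T cell activation, differed between the strains by -0.09 ± 0.36, 0.10 ± 0.23 and -0.05 ± 0.26, and none was called. Each of the 3 rose in both strains, by 1.98 and 1.84 for Il2, 1.08 and 0.98 for Cd69 and 2.42 and 2.40 for Il2ra. Over all genes 1204 (7.04%) responded to 4 h of anti-CD3 in C57BL/6, 697 up (4.08%) and 507 down (2.97%), and 973 (5.69%) in B6.Sle1b, 440 up (2.57%) and 533 down (3.12%). A gene called in 1 strain alone is not thereby shown to respond differently.

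Of the immediate early genes and regulators induced through the receptor, 21 of 22 were measured and none was called between the strains, with a median of 0.29 and 18 above 0. In unstimulated cells the median was 0.24, with 19 above 0. Over the 4 h, 5 of the 21 rose in each strain (4.08% of all genes in C57BL/6 and 2.57% in B6.Sle1b). In each strain 3 fell (2.97% and 3.12% of all genes). Fos, a subunit of the factor AP-1, had the largest difference of them, 0.71 ± 0.27, from 8.18, 7.93 and 7.40 in C57BL/6 to 8.52, 8.74 and 8.39 in B6.Sle1b without overlap. The Fos difference was 0.60 in unstimulated cells, and over the 4 h Fos moved by -0.52 in C57BL/6 and by -0.41 in B6.Sle1b. Among 16 activation surface markers, all measured, the median was 0.17 and none was called. Lag3, an inhibitory receptor that binds class II, measured 3.49, 3.74 and 3.80 in C57BL/6 and 4.31, 4.61 and 5.29 in B6.Sle1b, a difference of 1.06 ± 0.26 (adjusted p = 0.344). The Lag3 difference was 1.19 in unstimulated cells, and over the 4 h Lag3 moved by -0.26 in C57BL/6 and by -0.39 in B6.Sle1b. The inhibitory receptor gene Ctla4 differed by 0.37 ± 0.14 and the costimulatory receptor gene Icos by 0.21 ± 0.10.

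T follicular helper genes, of which 14 of 16 were measured, had a median of 0.18 and none was called. Maf, a transcription factor of these cells, measured 4.73, 3.20 and 3.65 against 4.92, 4.95 and 4.53, a difference of 0.94 ± 0.33 with array 1 of C57BL/6 inside the range of B6.Sle1b. Cxcr5, the receptor that guides cells to follicles, differed by -0.63 ± 0.28. Sostdc1, a secreted antagonist of BMP and Wnt signals, measured 3.59, 3.57 and 3.18 against 4.02, 4.38 and 4.07 at 4 h, a difference of 0.71 ± 0.24 that was not called. In unstimulated cells it was 2.00 higher in B6.Sle1b (adjusted p = 0.000202), and it fell by 1.58 over the 4 h in that strain (adjusted p = 0.000124). For the surface protein gene Cd200 the strain difference was likewise smaller at 4 h, with 0.66 unstimulated (called, adjusted p = 0.0465) and 0.29 ± 0.13 at 4 h (not called). Unlike Sostdc1, Cd200 moved up over the 4 h, by 1.34 in C57BL/6 and by 0.97 in B6.Sle1b.

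Regulatory T cell genes had a median of 0.15 (12 of 14 measured), T cell receptor signalling genes 0.04 (18 of 21) and genes of naive and quiescent cells 0.05 (14 of 18), with no call among them. Cd247, the zeta chain of the receptor complex, was the sole member of these signalling genes with an unadjusted p under 0.05 (-0.26 ± 0.10). Medians were 0.10 for glycolysis (13 of 16), -0.09 for cholesterol synthesis (14 of 18), -0.03 for the cell cycle (24 of 25), 0.04 for ribosome biogenesis (17 of 18), 0.03 for the amino acid and one-carbon stress response (13 of 15), 0.07 for heat shock (7 of 10) and -0.08 for apoptosis (16 of 18), again with no call. Of the mitochondrial carriers and iron genes (18 of 22, median -0.08) and the lipoprotein and sterol efflux genes (9 of 12, median -0.05), only Slc25a37 and Apoe were called. Within the apoptosis list Pmaip1 (NOXA), a pro-apoptotic BH3-only protein, stood out at 0.92 ± 0.25 (adjusted p = 0.544), from 6.85, 6.14 and 6.72 to 7.27, 7.54 and 7.65. Its difference was 1.26 in unstimulated cells, and over the 4 h Pmaip1 moved by -0.60 in C57BL/6 and by -0.95 in B6.Sle1b.

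Beyond the lists, the genes that came closest to a call without overlap of arrays included Gpr34, a receptor for lysophosphatidylserine. It measured 4.28, 5.07 and 5.51 in C57BL/6 and 3.56, 3.23 and 3.49 in B6.Sle1b, a difference of -1.52 ± 0.29 (adjusted p = 0.0557), which several other settings brought past the threshold. Gpr34 rose by 1.75 over the 4 h in C57BL/6 (adjusted p = 0.000280), while its response in B6.Sle1b was 0.42 (adjusted p = 0.630). Ctsh, a lysosomal cysteine protease, differed by -0.86 ± 0.18 (adjusted p = 0.124), from 5.57, 5.19 and 5.21 to 4.47, 4.36 and 4.55. Cd40, the receptor through which T cells activate B cells, differed by -0.94 ± 0.26, and Ly86 (MD-1), which pairs with the B cell protein CD180, by -1.14 ± 0.33. The vasodilator peptide gene Adm differed by -0.92 ± 0.24.

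In the higher direction Slpi, a secreted inhibitor of serine proteases, measured 6.61, 5.56 and 6.04 in C57BL/6 and 8.32, 7.70 and 7.51 in B6.Sle1b, a difference of 1.77 ± 0.46 (adjusted p = 0.449). Every B6.Sle1b array was clearly above every C57BL/6 array. Tg, the thyroglobulin gene, measured 5.45, 4.55 and 4.01 against 6.09, 5.81 and 5.78, a difference of 1.22 ± 0.25 (adjusted p = 0.111). It rose over the 4 h in both strains, with adjusted p = 0.0130 in C57BL/6 and, for a response of 1.64, adjusted p = 0.000124 in B6.Sle1b. Plagl1, a zinc finger transcription factor, differed by 1.13 ± 0.31, Slc35g1, a membrane protein of the solute carrier family, by 1.06 ± 0.23, and Il1r2, the decoy receptor for interleukin-1, by 1.15 ± 0.36. The neutrophil marker sums given above had the higher mean in B6.Sle1b, with overlap, and their part in the values of Slpi and Il1r2 was not tested.

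Over all 45141 probe sets 14 were called at 4 h (0.0310%), 4 higher in B6.Sle1b (0.00886%) and 10 lower (0.0222%). They belonged to the 7 genes and to H2-Aa, except for a pair with no gene symbol in the annotation. One of these was higher, with 10.37, 9.57 and 10.07 in C57BL/6 against 11.91, 11.81 and 11.66 in B6.Sle1b (1.79 ± 0.31, adjusted p = 0.0340). The other was lower, with 6.77, 6.57 and 6.40 against 5.31, 5.63 and 5.40 (-1.13 ± 0.18, adjusted p = 0.0151). Both pairs of groups were apart by more than their own range.

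Whether the strain difference depended on stimulation was tested directly. With each gene read by its brightest probe set, it changed from unstimulated cells to 4 h for 0 genes in limma (0%), with 376 at an unadjusted p under 0.05 (2.20%), and from 4 h to 24 h for 0 genes (0%), with 534 at an unadjusted p under 0.05 (3.12%). Over all 45141 probe sets 1 was called from unstimulated cells to 4 h (0.00222%), with 1136 at an unadjusted p under 0.05, and 0 from 4 h to 24 h (0%), with 1658 at an unadjusted p under 0.05. The called one was the dimmest probe set of Slamf6, whose strain difference went from -1.28 to -2.87, a change of -1.59 ± 0.17 (adjusted p = 0.000445). It measured 3.89, 3.44 and 3.85 in unstimulated C57BL/6, below the 4 h levels given above, and 2.35, 2.38 and 2.59 in unstimulated B6.Sle1b. B6.Sle1b was at background on all 3 arrays at both times, so a response there could not be read. From 4 h to 24 h the change on this probe set was not called (adjusted p = 0.0659). These tests share the 6 arrays at 4 h with the strain comparison, and the second rests on 2 arrays of C57BL/6 at 24 h.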

How the data were processed

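Total RNA of splenic CD4+ T cells was measured on 1-colour Affymetrix mouse arrays of the HT MG-430 PM design. The deposited values were linear intensities per probe set, made by the authors with RMA per the submitters' processing notes; the sources used here do not give its version. This method corrects background, quantile normalizes and summarises probes, which can compress differences of dim and very bright probe sets.

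From the deposited intensities log2 values were taken and fitted with limma 3.58.1 in R 4.3.3, with 26 biological arrays in 9 groups (3 strains at 3 times) sharing 1 spread on 17 residual degrees of freedom. All p-values are from limma, with Benjamini-Hochberg adjustment over 17097 genes or 45141 probe sets. The technical repeats of C57BL/6 at 24 h entered 1 alternative only. Symbols came from the platform annotation: 28898 probe sets had 1 symbol, 551 several and 15692 none, and a gene was read by its brightest probe set. Background was the 95th percentile of 23 control probe sets on each array. The fit was tested on simulated data.

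The genes named were those called, the SLAM family, the members of each pathway list with the smallest p (at most 6), up to 12 uncalled genes in each direction with the largest differences without overlap, marker genes with an unadjusted p under 0.05, and neighbours of called genes. The comparison, the members and the 30 lists (437 genes, 369 measured) were chosen with earlier results of these data known. Alternatives changed the arrays in the fit, normalization, brightness, the value added before the log, the filter, the probe set rule, the variance model and the replicate block.

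Same-numbered arrays of the strains at 4 h deviated together for numbers 1 and 3 but not 2 (correlations across genes of 0.43, 0.05 and 0.52). The labels do not say that a number marks a shared batch, so the numbers were not taken as pairs in the main fit. Fits with the number as a block are given as alternatives.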

Additional observations from a re-analysis of the deposited data

Results flagged for a closer look

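For 5 genes every B6.Sle1b array lay on one side of every C57BL/6 array at 4 h and on the opposite side at another time. They are 5 of the 152 genes that the rule named (3.29%), against 181 of all 17097 genes (1.06%), and 5 of the 71 named genes without overlap at 4 h (7.04%), against 181 of 1650 (11.0%). The change of the strain difference between times was tested in limma and was called for none of them. Polr1a, the catalytic subunit of RNA polymerase I, was higher in B6.Sle1b at 4 h (0.62 ± 0.30) and lower at 24 h (-0.45). Ifng was lower at 4 h (-0.60 ± 0.30) and higher in unstimulated cells (0.66). Bcl2l11, which encodes the pro-apoptotic protein BIM, was higher at 4 h (0.35 ± 0.23) and lower at 24 h (-0.27). Lef1, a transcription factor of naive T cells, was higher at 4 h (0.26 ± 0.33) and lower at 24 h (-0.60). Apoc1 was lower at 4 h (-0.23 ± 0.10) and higher at 24 h (0.24), at levels close to background. At 24 h C57BL/6 had only 2 biological arrays, and none of these single differences was called.

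The strain difference on the dimmest Slamf6 probe set changed by -1.59 ± 0.17 from unstimulated cells to 4 h (limma, adjusted p = 0.000445 over all probe sets). C57BL/6 rose on this probe set by 1.47, while B6.Sle1b was at background on all 3 arrays at both times, so its value there is a bound and its response could not be read.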

How the results depend on the processing

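Slamf6 was called in every alternative run, and its sign turned only with the mean of all its probe sets (-1.10), since its probe sets oppose each other. The 7 genes called at 4 h became 2 with only the 6 arrays, 1 with the arrays of both strains (5 probe sets in place of 14), 3 with median centring (5 probe sets), 11 after quantile normalizing again, and 15, 16 and 161 without the 3 dimmest arrays, with array brightness as a covariate and with array weights (32, 40 and 111 probe sets). Leaving out 1 array gave 4 to 7 genes and 5 to 10 probe sets. Responses to anti-CD3 (1204 genes in C57BL/6 and 973 in B6.Sle1b) ran to 2400 and 2011 without the dimmest arrays, 2563 and 2215 with brightness, 4742 and 4497 with weights, and 783 to 1194 and 690 to 950 with 1 array left out. The change of the strain difference from unstimulated to 4 h was called for 1 gene without the dimmest arrays and for 1310 with weights, against 0. The weights did not fully converge, so the counts with weights are uncertain. The change on the dimmest Slamf6 probe set was called in all 17 alternatives that could test it (-1.67 to -0.88), a check chosen after seeing the data. The cause of these shifts was not tested. Medians of the class II list (-0.77 to -0.41), B cell markers (-0.46 to -0.20) and the type I interferon list (0.13 to 0.50) kept their direction in all 20 alternatives.

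The replicate number as a block within each time gave 9 genes and 6 probe sets at 4 h and 437 and 333 responding genes. The replicate block on the 6 arrays alone gave 15 genes and 45 probe sets. The samples share only a number, so this pairing is not part of the design.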

Other observations

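Nnt, which encodes a mitochondrial enzyme that makes NADPH and is partly deleted in the C57BL/6J substrain, was looked at after its values had been seen. At 4 h it measured 5.97, 5.70 and 5.97 in C57BL/6 and 6.67, 6.73 and 6.59 in B6.Sle1b, without overlap. The difference was 0.78 ± 0.21 at 4 h, 0.97 ± 0.21 in unstimulated cells and 0.60 ± 0.23 at 24 h, and none was called (limma, adjusted p = 0.509, 0.0900 and 0.984). The labels name no substrain, and whether the strains differ in this deletion was not tested.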
